A study of Mus musculus with 42 samples.

Results

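The genes described here are the mouse translation initiation factors, taken as every gene of the table whose symbol starts with Eif and a digit from 1 to 6. The rule found 53 of 11160 genes: 47 factor genes, the 4 kinases of eIF2alpha (Eif2ak1 to Eif2ak4) and 2 genes of eIF4E-binding proteins (Eif4ebp1 and Eif4ebp2), and the last 2 kinds are reported apart. All 53 are annotated as protein-coding with a single place each in GENCODE mouse release 21 (GRCm38), on 19 chromosomes, and none had a count of 0 in any library.

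RNA was sequenced from cultured bone marrow-derived macrophages, grown from mouse bone marrow with M-CSF, which were WT or carried a knockout (KO) of MS4A4A, a macrophage membrane protein. Each genotype was taken untreated, and after vehicle or 1 µM dexamethasone (Dex), an agonist of the glucocorticoid receptor, for 2, 8 and 24 h. These are 14 groups of 3 libraries, 42 libraries in all. The series asks how MS4A4A bears on the response to corticosteroids. No source used here gives how the knockout was made, the strain, sex or age of the mice, or the origin of the replicates, so p-values measure the spread between libraries, which may be technical.

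Translation of most mRNAs starts at the 5′ cap. The cap is bound by eIF4E, which joins the scaffold eIF4G and the RNA helicase eIF4A in the eIF4F complex, while the ribosomal small subunit arrives with eIF1, eIF1A, eIF3, eIF5 and a ternary complex of eIF2, GTP and the initiator tRNA. Control is exerted at these steps: the eIF4E-binding proteins compete with eIF4G for eIF4E when mTORC1 is inactive, and phosphorylation of eIF2alpha turns eIF2 into an inhibitor of its exchange factor eIF2B, which lowers general initiation and favours a few mRNAs such as Atf4. In macrophages both switches are known to shape which inflammatory proteins are made.

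Library totals were 10140211 to 33528397 counts (median 27998690). The factor genes together had 5866 to 7252 CPM (the usual rate of counts per library size, with TMM scaling) in a library. The 6 macrophage markers summed to 17438 to 41977 CPM, so the labelled cell type was present throughout; no B cell or erythroid marker of the lists is in the table. Some markers of other cells moved with Dex at 24 h: 4 of 5 fibroblast markers measured summed to 4.95 to 14 CPM in the vehicle libraries and 8.98 to 41.8 CPM in the Dex libraries, Cd4, the single T cell marker measured of 4, lay at 7.74 to 14.3 and 1.68 to 6.23 CPM, and Kit, the single mast cell marker measured of 3, at 3.22 to 6.87 and 0.482 to 2.26 CPM. The 3 dendritic cell markers, all measured, summed to 10.5 to 16.9 CPM with vehicle and 5.11 to 7.23 CPM with Dex at 24 h, without overlap. At 8 h Kit lay at 4.47 to 9.77 CPM with vehicle and 1.03 to 3.94 CPM with Dex, also without overlap. The part of these cells in the results was not tested, and fewer cells of a type cannot be told apart from less RNA per cell in bulk libraries. Ms4a4a was lower in KO than in WT in each condition by group means (46.7 against 89.1 CPM untreated), yet measurable in every KO library. With Dex its mean rose in KO too, to 390 CPM at 8 h and 765 CPM at 24 h, against 631 and 1587 CPM in WT. The library labelled KO vehicle 24 h replicate 2 stood apart, with 179 CPM of Ms4a4a against 93 and 53.5 CPM in the other 2 of its group. The WT vehicle libraries of that time had 213, 142 and 148 CPM. It also had 69.9 CPM of the Dex target Fkbp5 against 14.2 and 16.9 CPM in the other 2 of its group. Tsc22d3, which rose with Dex too, was at 529 against 311 and 187 CPM. As Ms4a4a rose with Dex in KO, its level alone does not tell the genotype. The reason why this library stood apart was not tested. Without it, 32 instead of 33 members passed the threshold for Dex at 24 h, the one lost being Eif1b (edgeR adjusted p = 0.0253 with all libraries and 0.0994 without it). Within KO at 24 h 22 instead of 23 passed, 20 of them shared, for vehicle at 24 h against untreated 10 instead of 11, and the KO against WT and KO minus WT comparisons that use it stayed at 0.

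The members spanned a wide range of levels per length of exon. In the 6 untreated libraries Eif1, a factor of start codon selection, was highest with a mean of 255 CPM per kb (208 to 278). Eif4a1, the main eIF4A helicase gene, had 195 (189 to 202) and Eif5a, whose protein carries the hypusine residue and helps peptide bond formation, had 190 (166 to 205), so these 2 overlapped each other and both lay below every value of Eif1. Eif4g2, an eIF4G relative that does not bind eIF4E, followed with 96.7 (86.2 to 106). At the other end stood Eif2b3, a catalytic subunit gene of eIF2B, with 2.08 (1.89 to 2.21) and Eif4ebp2 with 0.868 (0.698 to 0.985), the lowest of the 53. Over all 42 libraries the CPM of Eif2ak2 varied most, with a highest value 4.83 times its lowest, followed by Eif4ebp2 (2.74 times), Eif4e (2.52 times) and Eif4ebp1 (2.51 times), while Eif3l (1.21 times) and Eif2b5 (1.21 times) varied least.

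Dex moved few members at 2 h and about as large a share as of all genes later. Averaged over the genotypes, 2 of 53 members passed an edgeR adjusted p of 0.05 at 2 h (1 higher, 1 lower) when 14.5% of the 11160 genes did (8.14% higher, 6.41% lower). At 8 h 26 members passed (16 higher, 10 lower), which is 49.1% of members beside 52.2% of all genes (27.5% higher, 24.7% lower). At 24 h 33 passed (24 higher, 9 lower), which is 62.3% beside 53.6% of all genes (26.8% higher, 26.8% lower). The sizes were small: the median absolute log2 fold change of the members at 8 h was 0.14, beside 0.21 over all genes, and only Eif4ebp1, at 8 h, exceeded a doubling.

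The calls were sorted by the times at which they passed, and passing at a single time does not show a difference between times. These patterns were not counted over all genes, of which 52.2% passed at 8 h and 53.6% at 24 h. Higher at both 8 and 24 h were 13 members: Eif2ak1, Eif2ak3, Eif2b1, Eif2b2, Eif2b4, Eif2d, Eif4a2, Eif4b, Eif4e3, Eif4ebp1, Eif4ebp2, Eif4h and Eif5. Lower at both times were 6 members, namely Eif2s1, Eif3b, Eif4a1, Eif4e, Eif4g2 and Eif5a. Eif1ad, Eif2a and Eif4enif1 were higher, and Eif3a, Eif4e2 and Eif4g1 lower, at 8 h and did not pass at 24 h. A further 10 passed as higher at 24 h and not at 8 h, and 3 (Eif2ak2, Eif2ak4 and Eif5a2) as lower. Eif2b3 passed in opposite directions, and 14 members passed at no time. Tested directly, the Dex effect differed between 8 and 2 h for 20 members (12 upward, 8 downward), beside 31% of all genes (16.9% and 14.1%). Between 24 and 8 h it differed for 10 members (9 upward, 1 downward), beside 25.9% of all genes (9.92% and 16%). These 10 were Eif1, Eif1a, Eif1b, Eif2b3, Eif2s3y, Eif3a, Eif3f, Eif4a3, Eif4e and Eif5a2. Of the members that passed at 8 h and not at 24 h, only Eif3a was among them.

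**Figure D1:**
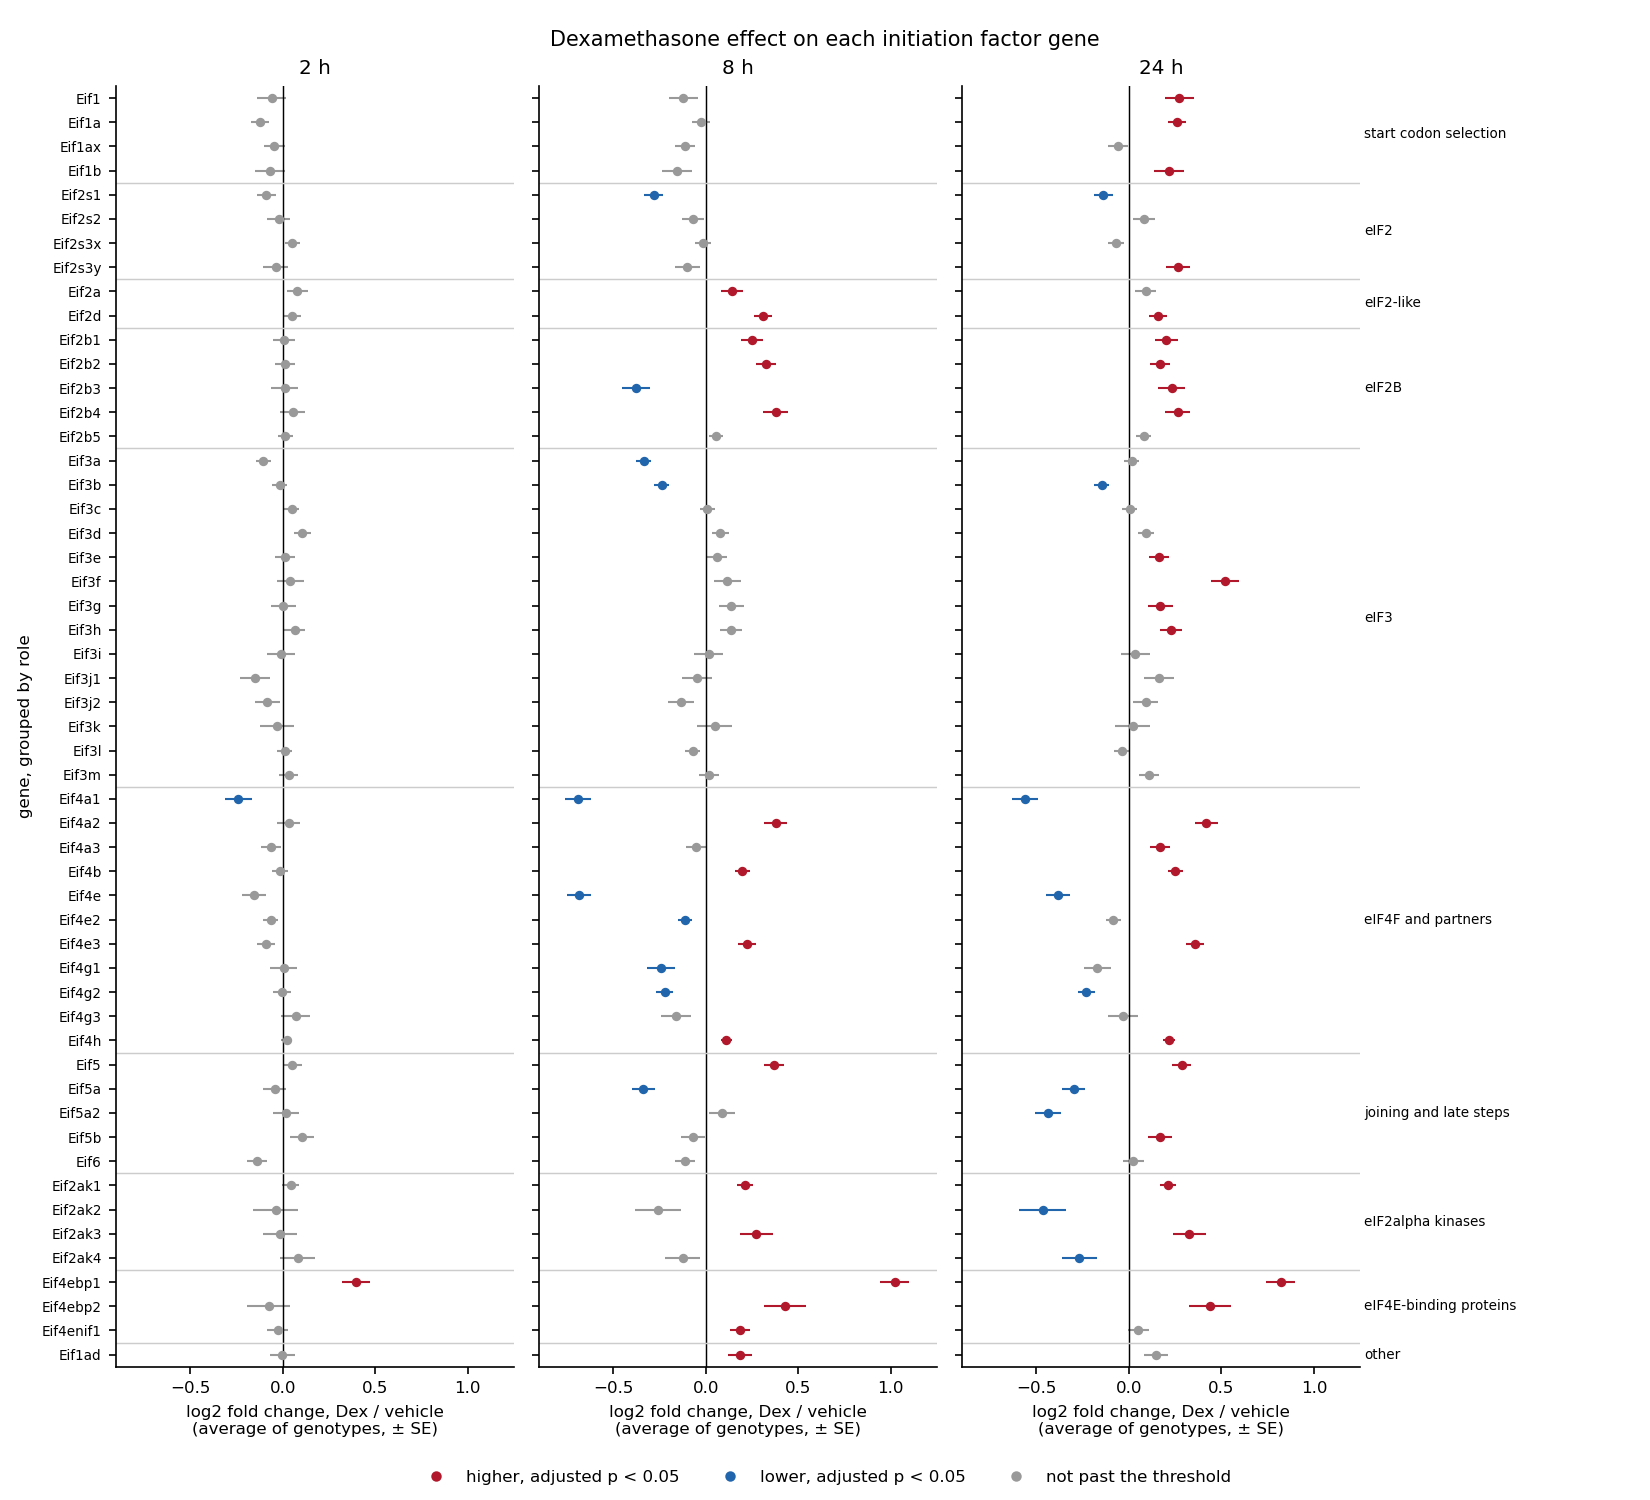
Log2 fold change of Dex against vehicle with its SE for each of the 53 genes (vertical axis, grouped by role) at 2, 8 and 24 h, averaged over WT and KO (6 libraries on each side); red and blue points passed an edgeR adjusted p of 0.05. At 8 h Eif4ebp1 lies farthest to the right (1.02) and Eif4a1 and Eif4e farthest to the left (both -0.69).

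Within eIF4F the 2 helicase genes went in opposite directions. Eif4a1 (chr11:69666936-69672423, minus strand) had 810, 849 and 708 CPM in WT with vehicle at 8 h and 463, 522 and 408 CPM with Dex. The KO libraries gave 710, 633 and 738 CPM with vehicle and 454, 436 and 463 CPM with Dex. Every Dex library was below every vehicle library in both genotypes. The log2 fold change over both genotypes was -0.69 (SE 0.071, edgeR adjusted p = 3.77e-10), or 1.62-fold lower. At 24 h it was -0.56 (SE 0.071, edgeR adjusted p = 2.89e-08), again without overlap in either genotype. At 2 h Eif4a1 was the single member called lower, at -0.24 (edgeR adjusted p = 0.0155); the call was lost without KO vehicle 2 h replicate 1 (adjusted p = 0.064) or without WT Dex 2 h replicate 3 (adjusted p = 0.0509).

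Eif4a2 (chr16:23107444-23114136, plus strand) encodes a close paralog of this helicase. In WT at 8 h it had 109, 119 and 114 CPM with vehicle and 147, 155 and 147 CPM with Dex. In KO the values were 130, 121 and 115 CPM with vehicle and 160, 161 and 148 CPM with Dex, and neither genotype overlapped. It rose by a log2 fold change of 0.38 at 8 h (SE 0.060, edgeR adjusted p = 2.48e-06) and 0.42 at 24 h (SE 0.060, edgeR adjusted p = 3.83e-07). The 24 h values were 160, 164 and 167 CPM in WT and 178, 183 and 175 CPM in KO with Dex, the highest of all conditions in both genotypes. Counts of close paralogs depend on how shared reads are split; the sum of the pair fell at each time, by 0.21 at 2 h, 0.49 at 8 h and 0.37 at 24 h on the log2 scale (edgeR adjusted p = 0.014, 1.89e-08 and 2.82e-06). Eif4a3, a related helicase of the exon junction complex, was 0.05 lower at 8 h without passing and rose by 0.17 at 24 h (edgeR adjusted p = 0.00871), a call lost without WT Dex 24 h replicate 2 (adjusted p = 0.0577).

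**Figure D2:**
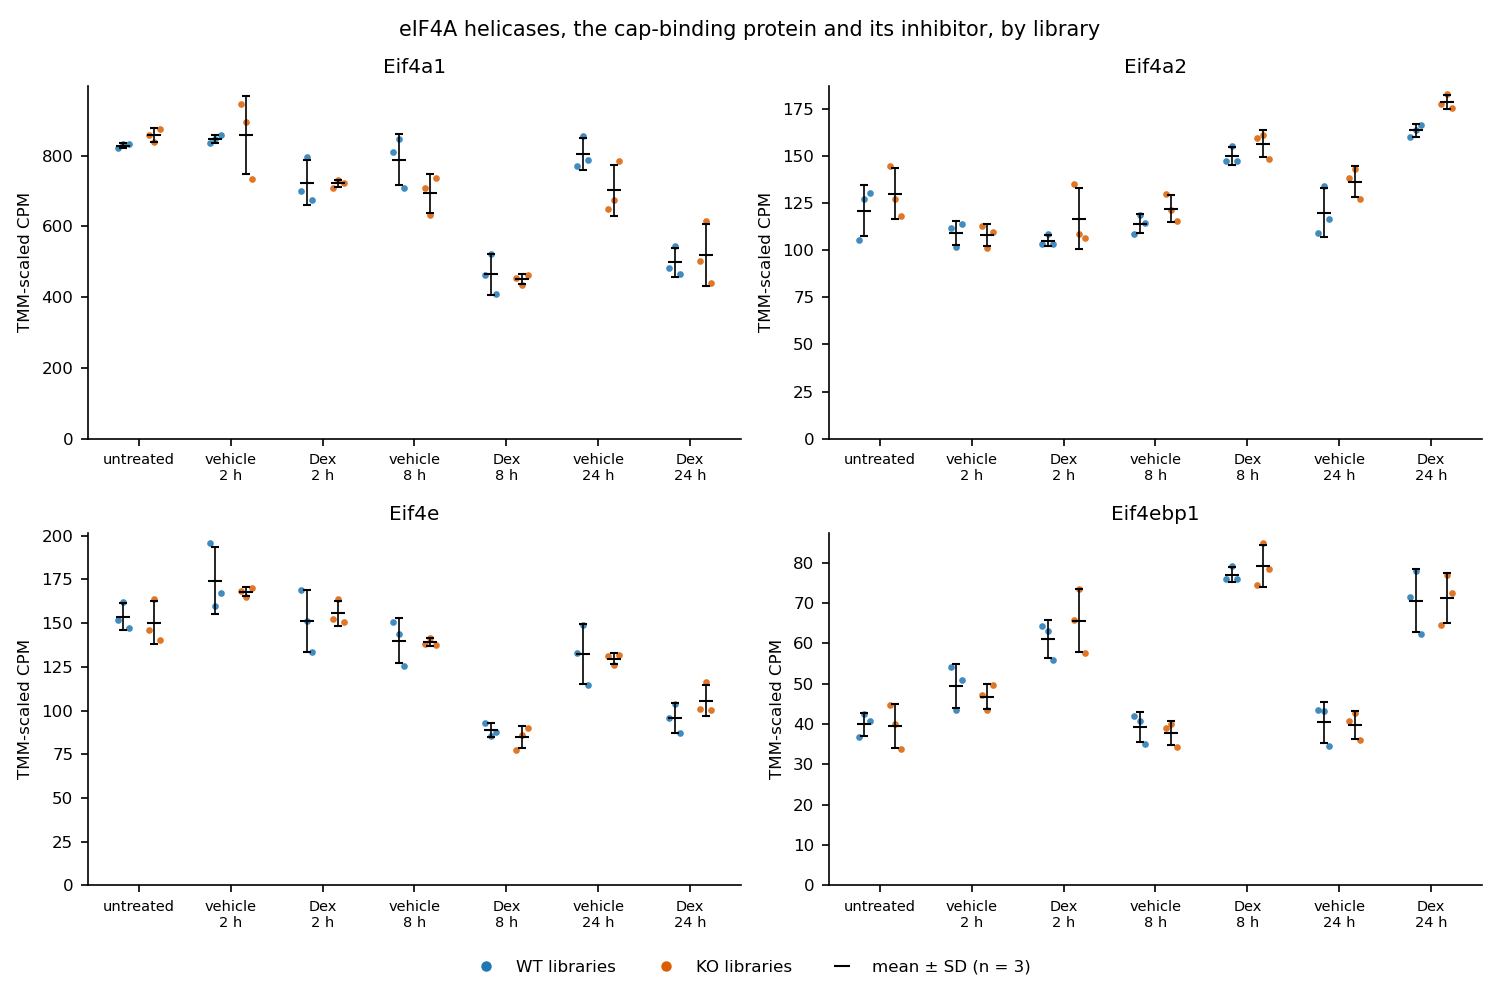
TMM-scaled CPM (vertical axis, from 0) of Eif4a1, Eif4a2, Eif4e and Eif4ebp1 in each library, by condition (horizontal axis) and genotype, with the mean and SD of 3 libraries. With Dex at 8 h, Eif4a1 lies at 408 to 522 CPM and Eif4e at 77.7 to 93 CPM, below every vehicle library of that time, and Eif4ebp1 lies at 74.6 to 84.8 CPM, above every one.

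Eif4e (chr3:138526179-138559696, plus strand), the cap-binding protein, fell about as much as Eif4a1. At 8 h WT libraries had 151, 144 and 125 CPM with vehicle and 93, 85.3 and 87.9 CPM with Dex. Those of KO had 138, 142 and 138 CPM and then 77.7, 86.2 and 90.0 CPM. The groups did not overlap, and the log2 fold change was -0.69 at 8 h (SE 0.065, edgeR adjusted p = 6.42e-11) and -0.38 at 24 h (SE 0.065, edgeR adjusted p = 6.86e-06). At 24 h the WT values were 133, 149 and 114 CPM with vehicle and 95.6, 104 and 86.9 CPM with Dex, still without overlap. The change at 24 h was smaller than at 8 h by 0.30 (edgeR adjusted p = 0.0122 for the difference). At 2 h Eif4e was at -0.16 and did not pass (edgeR adjusted p = 0.113), although it did without WT Dex 2 h replicate 1 (adjusted p = 0.046).

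The relatives of Eif4e moved otherwise. Eif4e3, a cap-binding relative, had 29.5, 33.3 and 29.6 CPM in WT at 8 h with vehicle and 38.6, 35.5 and 37.3 CPM with Dex. It rose by 0.22 at 8 h (edgeR adjusted p = 0.000279) and 0.36 at 24 h (edgeR adjusted p = 1.64e-07). Within a library the count of Eif4e3 was 0.196 to 0.236 of that of Eif4e in all 6 vehicle libraries at 8 h and 0.399 to 0.448 in all 6 Dex libraries. Eif4e2, a weak cap binder known from translational repression, fell slightly at 8 h (-0.11, edgeR adjusted p = 0.0159) and did not pass at 24 h (-0.08, adjusted p = 0.0678).

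Among the scaffolds, Eif4g1, the main eIF4G gene, had 171, 165 and 189 CPM with vehicle and 143, 142 and 143 CPM with Dex in WT at 8 h, and 169, 174 and 179 against 144, 148 and 166 CPM in KO. It fell by 0.24 over both genotypes (edgeR adjusted p = 0.00677), and missed the threshold at 24 h (-0.17, adjusted p = 0.0543). Eif4g2 fell by 0.22 and 0.23 at 8 and 24 h (edgeR adjusted p = 0.000153 and 9.75e-05). Eif4g3 was called at no time. The 2 cofactors that stimulate the helicase rose at both times: Eif4b by 0.20 and 0.25 and Eif4h by 0.11 and 0.22 (edgeR adjusted p of 0.00316 or lower). Of the 11 genes of eIF4F and its partners, 9 (81.8%) thus passed at 8 h (4 higher, 5 lower) and 8 (72.7%) at 24 h (5 higher, 3 lower), beside 52.2 and 53.6% of all genes; whether the share differs was not tested.

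The opposite movements show in ratios taken within each library, where scaling cancels. The ratio of Eif4a1 to Eif4a2 counts at 8 h was 7.45, 7.14 and 6.20 in WT with vehicle and 3.15, 3.36 and 2.77 with Dex. In KO it was 5.47, 5.23 and 6.40 and then 2.84, 2.70 and 3.12. At 24 h the 6 vehicle libraries lay between 4.68 and 7.07 and the 6 Dex libraries between 2.51 and 3.36, again without overlap.

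**Figure D3:**
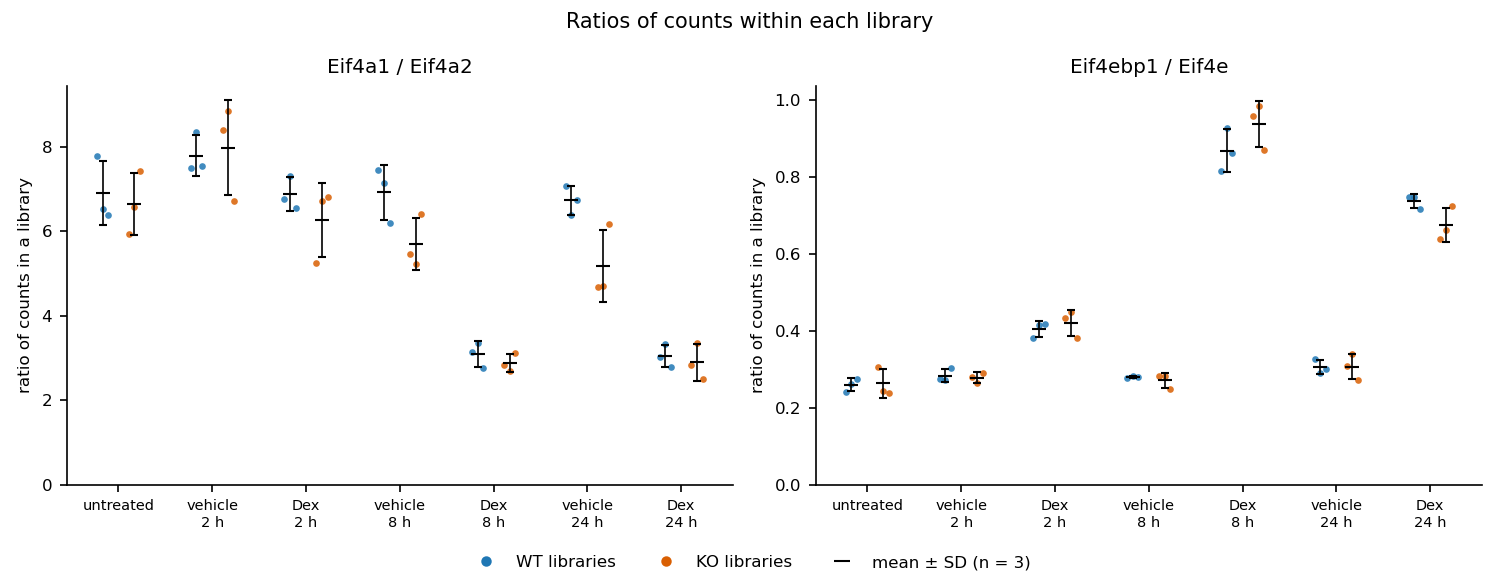
Ratio of Eif4a1 to Eif4a2 counts and of Eif4ebp1 to Eif4e counts (vertical axes, from 0) in each library by condition and genotype, with the mean and SD of 3 libraries. At 8 h the first ratio falls from a WT mean of 6.93 with vehicle to 3.09 with Dex, and the second goes from 0.280 to 0.869.

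The E-box, the letters CACGTG, is bound by transcription factors such as MYC and USF. By calls at 8 h it was unevenly spread over the members. Sequences before the gene starts are therefore shown for 3 eIF4F genes, 2 that fell and 1 that rose. They are the 250 bases before a start annotated by RefSeq (GRCm38.p6), 5′ to 3′ on the strand of the gene, with E-boxes in capitals. The window of Eif4a1 is chr11:69672424-69672673 (minus strand), that of Eif4e, the one of 2 RefSeq windows with more E-boxes, is chr3:138527018-138527267 (plus strand) and that of Eif4a2 is chr16:23107218-23107467 (plus strand). RefSeq and GENCODE starts differ: the Eif4e window lies inside the GENCODE gene given above, and the Eif4a2 window runs past its GENCODE start.
Eif4a1: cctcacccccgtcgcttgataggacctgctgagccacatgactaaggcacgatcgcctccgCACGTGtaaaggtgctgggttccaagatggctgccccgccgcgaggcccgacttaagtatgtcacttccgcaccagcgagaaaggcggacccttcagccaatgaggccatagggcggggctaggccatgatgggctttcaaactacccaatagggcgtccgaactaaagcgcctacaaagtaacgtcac
Eif4e: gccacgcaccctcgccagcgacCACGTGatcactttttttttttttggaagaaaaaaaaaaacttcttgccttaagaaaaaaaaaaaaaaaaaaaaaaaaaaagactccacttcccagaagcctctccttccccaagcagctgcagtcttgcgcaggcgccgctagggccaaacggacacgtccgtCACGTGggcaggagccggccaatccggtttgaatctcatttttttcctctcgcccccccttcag
Eif4a2: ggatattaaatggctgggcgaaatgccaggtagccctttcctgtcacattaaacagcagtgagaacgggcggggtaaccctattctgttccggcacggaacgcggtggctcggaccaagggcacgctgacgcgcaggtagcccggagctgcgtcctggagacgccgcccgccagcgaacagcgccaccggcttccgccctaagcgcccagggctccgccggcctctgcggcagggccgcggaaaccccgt
The Eif4a1 window has 1 E-box, 189 bases before the start, the Eif4e window has 2, at 228 and 64 bases, and the Eif4a2 window has none.

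Of the 53 members, 43 had a window in the RefSeq promoter set used here, and Eif4ebp1 was among those without one. Of the 43, 9 (20.9%) held CACGTG in any of their windows, beside 877 of 8592 measured genes with a window (10.2%). They were Eif1b, Eif3f, Eif3k, Eif4a1, Eif4e, Eif4g1, Eif4h, Eif5a and Eif5a2. Among members lower with Dex at 8 h it was in 4 of 8 (50.0%), namely Eif4a1, Eif4e, Eif4g1 and Eif5a, among members higher at 8 h in 1 of 14 (7.14%), namely Eif4h, and among the others in 4 of 21 (19.0%). By calls at 24 h the 9 genes were more mixed. Eif1b, Eif3f and Eif4h were higher, Eif4a1, Eif4e, Eif5a and Eif5a2 were lower, and Eif3k and Eif4g1 did not pass. The letters read the same on both strands, and these counts are small and carry no test. Genes with more windows had more bases searched. Among the lower members Eif5a had 6 windows, Eif4e2 3, Eif4e 2, and Eif4a1 and Eif4g1 1 each. Among the higher ones Eif4enif1 had 4 and Eif4h 1. The GC box GGGCGG, searched on both strands, was in 74.4% of members and 64.5% of measured genes. By calls at 8 h it was in 75.0% of lower members, 92.9% of higher members and 61.9% of the others. The letters TGATGNAA of the ATF4 and C/EBP type were in 2.33% of members and 2.48% of measured genes. The palindromic glucocorticoid receptor element, in relaxed letters, was in no member window and in 0.221% of measured genes; this covers only that motif in these windows.

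Eif4ebp1 (chr8:27260329-27276674, plus strand), the gene of an eIF4E-binding protein that blocks assembly of eIF4F, rose more than any other member at each time. In WT it had 54.0, 43.4 and 51.0 CPM with vehicle at 2 h and 64.4, 63.0 and 55.8 CPM with Dex. In KO the 2 h values were 47.2, 43.6 and 49.6 CPM and then 65.8, 73.4 and 57.6 CPM. Already at 2 h no Dex library overlapped the vehicle libraries of its genotype. At 8 h WT had 41.9, 40.7 and 35.1 CPM with vehicle and 76.0, 79.1 and 75.9 CPM with Dex, and KO had 38.9, 40.0 and 34.4 CPM and then 74.6, 84.8 and 78.3 CPM. The log2 fold changes were 0.40 at 2 h (SE 0.077, edgeR adjusted p = 0.000194), 1.02 at 8 h (SE 0.078, edgeR adjusted p = 3.70e-13) and 0.82 at 24 h (SE 0.078, edgeR adjusted p = 6.97e-11). These are 1.32-fold, 2.03-fold and 1.77-fold increases.

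With Eif4e lower and Eif4ebp1 higher, the ratio of their counts moved further than either gene. It was 0.279, 0.283 and 0.280 in WT with vehicle at 8 h and 0.817, 0.927 and 0.864 with Dex. In KO it was 0.282, 0.283 and 0.250 with vehicle and 0.960, 0.984 and 0.870 with Dex. By 24 h it was 0.274 to 0.339 in the vehicle libraries and 0.639 to 0.749 in the Dex libraries. The counts say nothing of protein amounts or of the phosphorylation that sets the activity of the binding protein.

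Eif4ebp2, the paralog, was far less abundant. At 8 h it had 6.37, 7.62 and 6.07 CPM in WT with vehicle and 8.21, 8.95 and 6.90 CPM with Dex, which overlap, and 6.53, 6.68 and 5.95 against 8.20, 10.2 and 10.5 CPM in KO, which do not. Over both genotypes it rose by 0.43 at 8 h and 0.44 at 24 h (SE 0.113 and 0.114, edgeR adjusted p = 0.00191 and 0.00159). Eif4enif1, which carries eIF4E into the nucleus and also binds it in P-bodies, rose by 0.19 at 8 h (edgeR adjusted p = 0.00529) and was at 0.05 at 24 h (adjusted p = 0.466).

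Of the 4 genes of eIF2 itself, 1 passed at 8 h and 2 at 24 h, beside 52.2 and 53.6% of all genes. Eif2s1, the gene of eIF2alpha, fell by 0.28 at 8 h (SE 0.052, edgeR adjusted p = 2.26e-05), with 173, 163 and 150 CPM against 136, 140 and 136 CPM in WT and 175, 165 and 157 against 130, 140 and 127 CPM in KO. Its change at 24 h was -0.14 (adjusted p = 0.0242), a call kept in 8 of the 12 edgeR fits that left out a library and lost when replicate 1 or 2 of WT vehicle 24 h, replicate 1 of KO vehicle 24 h or replicate 3 of WT Dex 24 h was left out (adjusted p up to 0.0891). Eif2s2, the beta subunit gene, was called at no time.

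The gamma subunit has an X-linked and a Y-linked gene, and all libraries held both. Eif2s3y was at 77.3, 88.3 and 86.0 CPM in WT with vehicle at 24 h and at 98.1, 104 and 95.5 CPM with Dex. In KO it was at 77.7, 74.3 and 82.8 CPM and then at 95, 83.8 and 108 CPM. It rose by 0.27 (SE 0.067, edgeR adjusted p = 0.00119), with no overlap in either genotype. Eif2s3x stayed between 57.6 and 67.3 CPM in the same 12 libraries, at -0.07 (adjusted p = 0.153), and the sum of the pair was 0.13 higher (edgeR adjusted p = 0.0171). Of the other Y-linked genes of the list, Kdm5d was 0.26 and Uty 0.18 higher at 24 h (edgeR adjusted p = 0.00647 and 0.0275), while Ddx3y was at 0.09 and did not pass (adjusted p = 0.124).

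eIF2B is the exchange factor that reloads eIF2 with GTP. Of its 5 subunit genes, 4 passed at 8 h and 4 at 24 h, beside 52.2 and 53.6% of all genes. Eif2b5, of the catalytic epsilon subunit, passed at neither time. Eif2b4, of the delta subunit, had 21.9, 21.3 and 22.1 CPM in WT with vehicle at 8 h and 30.3, 30.1 and 28.1 CPM with Dex. In KO it had 24.6, 21.5 and 21.3 CPM and then 29.9, 26.8 and 27.2 CPM. The groups did not overlap and the gene rose by 0.38 at 8 h (SE 0.067, edgeR adjusted p = 1.45e-05) and 0.26 at 24 h (edgeR adjusted p = 0.00128), but 7.8% of its exon bases lie opposite to Snx17 and use of strand in counting is not given. The other regulatory subunit genes, Eif2b1 and Eif2b2, rose by 0.25 and 0.33 at 8 h and by 0.20 and 0.17 at 24 h (edgeR adjusted p of 0.0118 or lower).

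Eif2b3, of the gamma subunit, was the one member with calls in both directions. At 8 h WT had 15.0, 14.4 and 11.8 CPM with vehicle and 10.2, 11.7 and 10.7 CPM with Dex, and KO had 13.1, 17.6 and 14 against 11, 11.8 and 10.8 CPM. At 24 h the order was turned, with 14.6, 14.1 and 12.3 CPM against 16.5, 15.5 and 15.8 CPM in WT and 14.8, 14.7 and 13.6 against 15.8, 18.9 and 16.3 CPM in KO. None of these 4 pairs of groups overlapped. The log2 fold changes were -0.38 (SE 0.074, edgeR adjusted p = 5.89e-05) and 0.23 (SE 0.073, edgeR adjusted p = 0.00853), and they differed by 0.61 (edgeR adjusted p = 3.20e-05 for the difference). Eif2d and Eif2a, which can deliver initiator tRNA without eIF2, were 0.31 and 0.14 higher at 8 h (edgeR adjusted p = 1.31e-06 and 0.0378). The call of Eif2a held in 4 of the 12 fits without a library, with adjusted p up to 0.136 (without KO Dex 8 h replicate 1), and the call of Eif2d in all 12.

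The 4 kinases that phosphorylate eIF2alpha were split. Eif2ak1, the heme-regulated kinase HRI, had 88.2, 85 and 94.8 CPM in WT with vehicle at 8 h and 103, 101 and 103 CPM with Dex, and 86.4, 82.3 and 96.1 against 99.5, 102 and 108 CPM in KO. It rose by 0.21 at 8 and at 24 h (SE 0.044 each, edgeR adjusted p = 0.000132 and 0.000151), but 8.6% of its exon bases lie opposite to Aimp2. Eif2ak3, the endoplasmic reticulum kinase PERK, had 19.9, 16.9 and 22.1 CPM against 23.9, 26.0 and 27.6 CPM in WT at 24 h and 18.5, 24.9 and 19.6 against 25.0, 24.2 and 25.8 CPM in KO. Only the KO groups overlapped there. Its log2 fold changes were 0.27 at 8 h (edgeR adjusted p = 0.0112, and 0.0528 without KO Dex 8 h replicate 1) and 0.33 at 24 h (edgeR adjusted p = 0.00284).

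Eif2ak2 (chr17:78852564-78882573, minus strand), the interferon-induced RNA-sensing kinase PKR, and Eif2ak4, the amino acid sensor GCN2, fell at 24 h averaged over the genotypes. Eif2ak2 had 32.9, 28.8 and 33.4 CPM in WT with vehicle and 28.5, 20.8 and 28.7 CPM with Dex, and 32.8, 34.7 and 32.5 against 22.9, 18.8 and 22.4 CPM in KO. Neither genotype overlapped, though the closest WT values were 28.8 and 28.7 CPM, and the log2 fold change was -0.47 (SE 0.126, edgeR adjusted p = 0.00216). At 8 h it was -0.26 (adjusted p = 0.0808), with a wide KO vehicle group (34.7, 22.4 and 51.1 CPM); without KO vehicle 8 h replicate 2 it was -0.38 (edgeR adjusted p = 0.00327), and without KO vehicle 8 h replicate 3 it was -0.09 (adjusted p = 0.515). Eif2ak4 had 24.3, 23.5 and 30.6 against 20.7, 21 and 26.7 CPM in WT at 24 h, which overlap, and 30.3, 27.4 and 31.2 against 22.3, 20.9 and 26.8 CPM in KO, which do not. Its log2 fold change of -0.27 passed (edgeR adjusted p = 0.0163) except without WT vehicle 24 h replicate 3 (adjusted p = 0.0705).

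**Figure D4:**
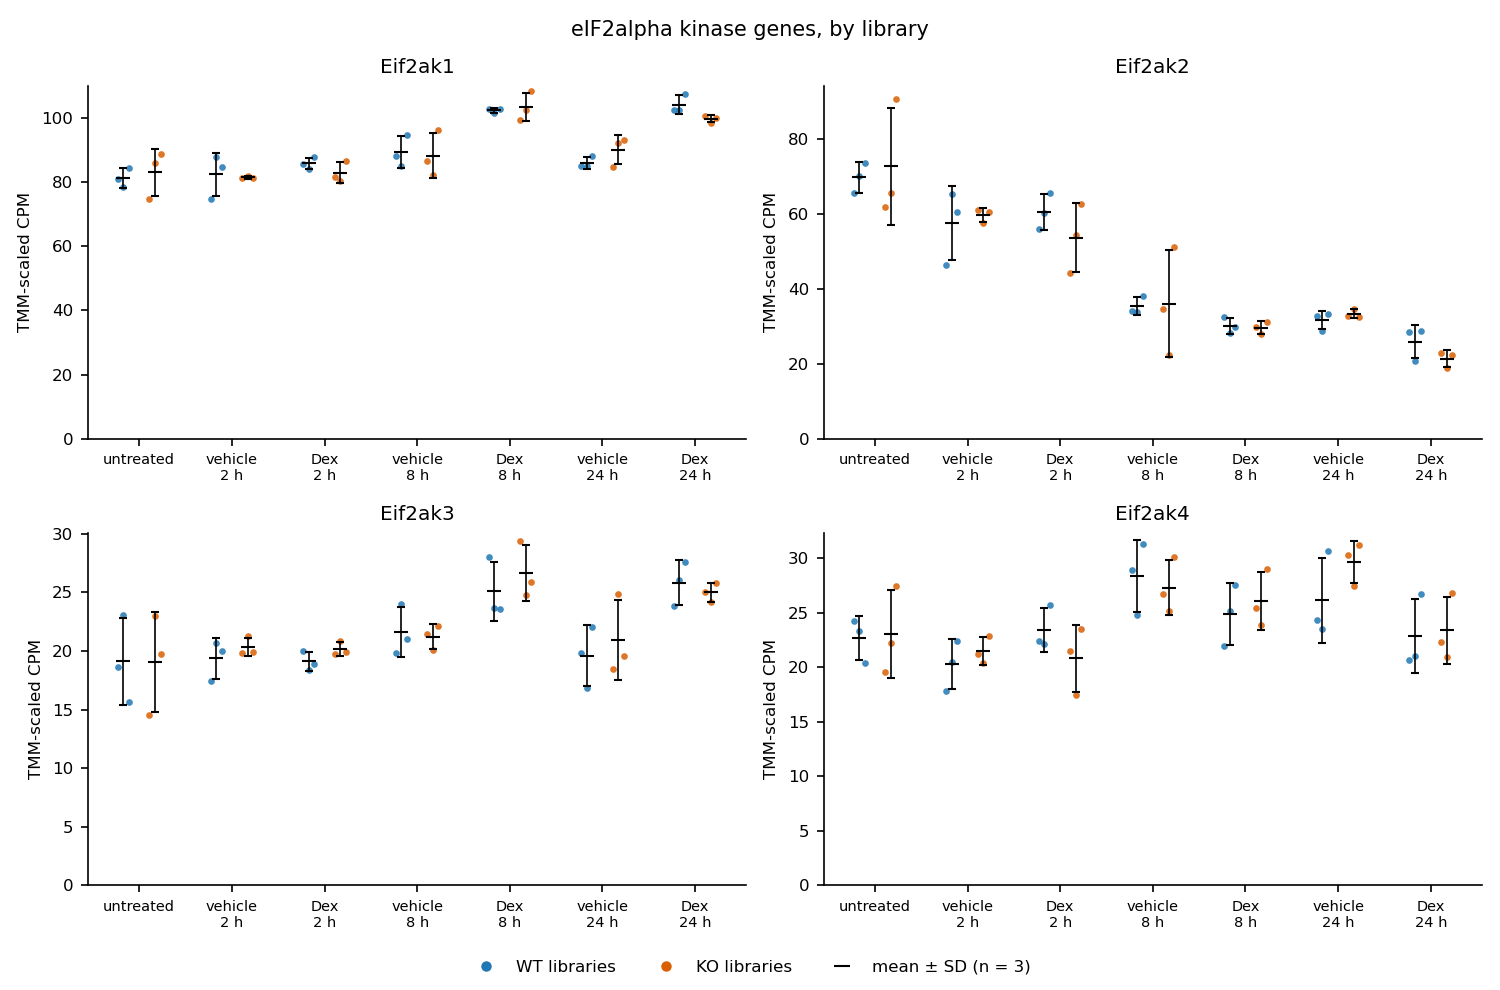
TMM-scaled CPM (vertical axis, from 0) of the 4 eIF2alpha kinase genes in each library, by condition (horizontal axis) and genotype, with the mean and SD of 3 libraries. Eif2ak2 lies at 62.0 to 90.7 CPM in untreated cells and at 18.8 to 28.7 CPM with Dex at 24 h, while Eif2ak1 lies at 98.6 to 107 CPM with Dex at 24 h against 84.8 to 93.1 CPM with vehicle.

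Of the 14 genes of eIF3, the scaffold that holds the small subunit and mRNA together, 2 were called at 8 h, beside 52.2% of all genes. Whether the share differs was not tested. Eif3a, the largest core subunit, fell by 0.34 (SE 0.041, edgeR adjusted p = 1.47e-08), with 238, 234 and 253 CPM against 197, 188 and 203 CPM in WT and 229, 245 and 242 against 175, 190 and 190 CPM in KO, and was back at 0.02 at 24 h (difference 0.35, edgeR adjusted p = 1.51e-05). Eif3b, the other core subunit called, fell by 0.24 at 8 h and 0.15 at 24 h (edgeR adjusted p = 6.45e-06 and 0.00241). At 24 h Eif3f, a deubiquitinase-like subunit, stood out among them. It had 42.9, 41.3 and 39.7 CPM in WT with vehicle and 53.2, 63.1 and 58.4 CPM with Dex, and 44.2, 44.4 and 41.7 against 59.1, 63.1 and 67.5 CPM in KO. No values overlapped, and it rose by 0.52 (SE 0.074, edgeR adjusted p = 3.21e-07), against 0.12 at 8 h, where it did not pass. Eif3e, Eif3g and Eif3h rose by 0.16 to 0.23 at 24 h; Eif3h was called in all 12 fits without a library, Eif3e in 9 and Eif3g in 5, the highest adjusted p of Eif3g being 0.161 (without WT Dex 24 h replicate 2) and that of Eif3e 0.0573 (without WT vehicle 24 h replicate 3). The remaining 8 were called at no time over both genotypes.

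Factors of start codon selection passed at 24 h only. Eif1 had 502, 507 and 408 against 574, 607 and 477 CPM in WT, which overlap, and 498, 451 and 465 against 585, 594 and 583 CPM in KO, which do not, and it rose by 0.27 (SE 0.078, edgeR adjusted p = 0.00371). Eif1a rose by 0.26 (edgeR adjusted p = 3.01e-05) and its X-linked paralog Eif1ax was at -0.06 (adjusted p = 0.39). Eif1b rose by 0.22 (edgeR adjusted p = 0.0253), a call kept in 6 of the 12 fits without a library (adjusted p up to 0.101, without WT Dex 24 h replicate 2). Summing counts of each pair gave 0.27 for Eif1 and Eif1b and 0.18 for Eif1a and Eif1ax (edgeR adjusted p = 0.00399 and 0.0013).

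Late factors went both ways. Eif5, the GTPase activator of eIF2 whose mRNA is under feedback control, had 333, 312 and 319 CPM in WT with vehicle at 8 h and 424, 413 and 402 CPM with Dex, and 317, 294 and 334 against 416, 400 and 409 CPM in KO. It rose by 0.37 at 8 h and 0.28 at 24 h (SE 0.052 each, edgeR adjusted p = 3.48e-07 and 2.37e-05). Eif5a fell, with 456, 441 and 406 against 360, 350 and 342 CPM in WT at 8 h and 420, 455 and 403 against 300, 353 and 338 CPM in KO. Neither overlapped, and the log2 fold changes were -0.34 at 8 h and -0.30 at 24 h (SE 0.063 each, edgeR adjusted p = 2.66e-05 and 0.00014). Its paralog Eif5a2 was at 0.09 at 8 h and fell by 0.44 at 24 h (SE 0.071, edgeR adjusted p = 3.10e-06), with 22.0, 23.2 and 23.0 against 15.0, 19.3 and 19.0 CPM in WT and 25.1, 22.8 and 26.8 against 16.9, 17 and 18.1 CPM in KO. Eif5b, the subunit-joining GTPase, rose by 0.17 at 24 h (edgeR adjusted p = 0.0288), but in only 8 of the 12 fits without a library (adjusted p up to 0.137, without WT Dex 24 h replicate 2), and 16.8% of its exon bases lie opposite to Rev1. Eif6, which keeps the large subunit apart, was called at no time. Eif1ad, named for a domain shared with eIF1A, was 0.18 higher at 8 h (edgeR adjusted p = 0.0193), with 15.3% of its exon bases opposite to Banf1 and calls in 9 of the 12 fits (adjusted p up to 0.0579, without WT Dex 8 h replicate 2).

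Summed over the 47 factor genes, the total was lower with Dex at 8 h: 6717, 6698 and 6402 CPM in WT with vehicle became 6048, 6087 and 5949 CPM, and 6504, 6558 and 6495 became 5866, 5994 and 5949 CPM in KO. Neither genotype overlapped. The sum was not tested, and abundant genes such as Eif4a1 weigh most in it. By gene, 12 of the 47 factor genes were called higher and 10 lower at 8 h, with a median log2 fold change of -0.02. These calls were 46.8% of the factor genes, beside 52.2% of all genes. At 24 h the values were 6596, 6762 and 6169 against 6047, 6518 and 6048 CPM in WT and 6481, 6325 and 6368 against 6322, 6730 and 6314 CPM in KO, and both overlapped.

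No member was called between the genotypes. With the 4 conditions without Dex averaged, 0 of 53 members differed between KO and WT by edgeR or by DESeq2. Of all genes 0.224% passed by edgeR, and DESeq2 called 71 genes. By edgeR 2 members had an unadjusted p under 0.05, beside 933 of all 11160 genes. Those 2 were Eif2s3y, at -0.14 (95% interval -0.24 to -0.04, edgeR adjusted p = 0.321), and Eif4a2, at 0.09 (0.01 to 0.18, edgeR adjusted p = 0.546). For Eif4ebp1 the difference was -0.04 (95% interval -0.16 to 0.07) and for Eif4e -0.03 (-0.13 to 0.06). The 7 single conditions also gave 0 members by both tools, with 0 to 7 members at an unadjusted p under 0.05 by edgeR. The 7 were after 2 h of Dex, beside 947 of all 11160 genes. Of all genes, by edgeR 0.00896% passed after 2 h of vehicle, 0.00896% after 8 h of vehicle, 0.0448% after 24 h of Dex and 0% in the other 4. DESeq2 called 2 genes after 2 h of vehicle, 2 after 8 h of vehicle, 4 after 2 h of Dex and 25 after 24 h of Dex. A p that misses the threshold does not show that the genotypes are alike, and the intervals give the sizes left possible.

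The Dex effect was likewise not shown to differ between the genotypes. The test of the difference (KO minus WT) called 0 members at 2, 8 and 24 h and over the 3 times by edgeR and by DESeq2. It also called 0% of all genes by either tool. By edgeR 8, 0, 0 and 1 members had an unadjusted p under 0.05, beside 986, 133, 564 and 598 of all 11160 genes. For Eif4ebp1 the difference was 0.18 (95% interval -0.13 to 0.50) at 2 h, 0.10 (-0.22 to 0.41) at 8 h and 0.04 (-0.28 to 0.36) at 24 h. For Eif4a1 it was -0.02 (-0.31 to 0.26), 0.14 (-0.15 to 0.43) and 0.26 (-0.03 to 0.54). Within WT 0, 21 and 20 members were called at 2, 8 and 24 h (9.02, 37 and 41.7% of all genes), and within KO 2, 21 and 23 (10.4, 38.5 and 38.3%). In WT at 2 h 5 members had an unadjusted p under 0.05 by edgeR, beside 2181 of all 11160 genes. DESeq2 called 1 member and 1116 of all genes there. At 8 h 18 members were called in both, which is 85.7% of the calls in WT and 85.7% of those in KO, all in the same direction; at 24 h 14 were, which is 70% and 60.9%. Over all genes the shares called in both were 85.2% of WT and 81.9% of KO calls at 8 h, and 72.9% and 79.4% at 24 h. The 2 called in KO at 2 h were Eif4ebp1 (0.49, edgeR adjusted p = 0.00166) and Eif3d (0.22, edgeR adjusted p = 0.0158); leaving out replicate 1 or 2 of KO Dex 2 h, or replicate 1 of KO vehicle 2 h, left a single member called, and without KO Dex 2 h replicate 3 there were 6. The 24 h count in KO was 14 without KO vehicle 24 h replicate 3, and the one in WT was 10 when the 6 compared libraries were fitted alone.

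**Figure D5:**
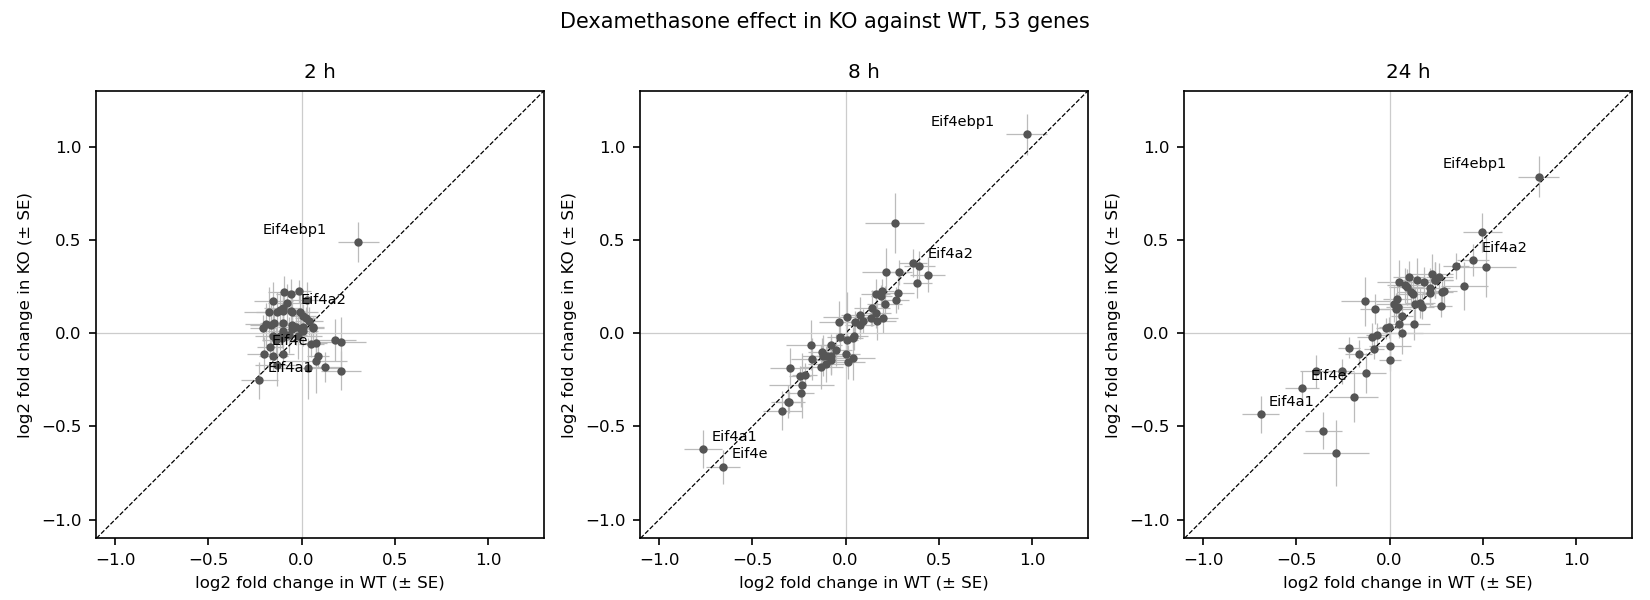
Log2 fold change of Dex against vehicle in KO (vertical axis) against WT (horizontal axis) with SE for the 53 genes at 2, 8 and 24 h; the dashed line marks equal effects. Eif4ebp1 lies at 0.97 in WT and 1.07 in KO at 8 h, and Eif4a1 at -0.76 and -0.62.

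Vehicle cells also differed from untreated cells, most in a kinase gene. Against untreated cells, averaged over the genotypes, 8 members passed at 2 h (6 higher, 2 lower; of all genes 13.8%, 7.03% higher and 6.72% lower), 10 at 8 h (5 and 5; 18.2%, 8.49% and 9.66%) and 11 at 24 h (5 and 6; 31%, 15.6% and 15.4%). Eif2ak2 moved most: 65.6, 70.3 and 73.7 CPM in untreated WT cells and 62.0, 65.6 and 90.7 CPM in untreated KO cells stood against 34.2, 34.0 and 38.2 and against 34.7, 22.4 and 51.1 CPM after 8 h of vehicle. The log2 fold changes were -1.0 at 8 h (SE 0.123, edgeR adjusted p = 1.81e-07) and -1.13 at 24 h (SE 0.124, edgeR adjusted p = 7.14e-09), larger than the effect of Dex on this gene at either time. Eif2d fell by 0.47 in 24 h of vehicle (edgeR adjusted p = 1.18e-09) and was 0.16 higher with Dex than with vehicle (edgeR adjusted p = 0.00633), and Eif4ebp2 rose by 0.39 and 0.46 at 8 and 24 h (edgeR adjusted p = 0.0186 and 0.00318). Eif4ebp1 was 0.28 higher at 2 h (edgeR adjusted p = 0.0143). The vehicle groups serve in these comparisons and in those of Dex. The 2 h count was 4 without KO untreated replicate 3, 5 when replicate 1 of WT untreated or of WT vehicle 2 h was left out, and 2 when the compared groups were fitted alone; the 8 h count was 6 when replicate 3 of vehicle 8 h was left out in WT or in KO.

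Genes that act on these factors were taken from lists of the pathway, whose counts stand beside 14.5, 52.2 and 53.6% of all genes called at 2, 8 and 24 h. Of 17 genes around mTORC1 and the binding proteins, 5 were higher and 0 lower at 2 h, 8 and 3 at 8 h and 5 and 1 at 24 h, with a median log2 fold change of 0.13 at 8 h beside 0.01 over all genes. Ddit4, an inhibitor of mTORC1 signalling and known glucocorticoid target, had 1.33, 2.11 and 1.53 CPM in WT with vehicle at 8 h and 125, 126 and 114 CPM with Dex, and 2.25, 1.43 and 1.66 against 143, 127 and 132 CPM in KO. It rose by 5.24, 6.21 and 5.11 at 2, 8 and 24 h (edgeR adjusted p = 7.82e-18, 4.86e-20 and 2.91e-18), and its value in KO Dex 24 h replicate 2, 28.5 CPM, lay well below 94.9 and 123 CPM in the other 2 of that group. Without that library, 32 members were called for Dex at 24 h, 30 of them among the 33: Eif1b, Eif3g and Eif5b were lost, and Eif2b5 and Eif4e2 were gained. Within KO 19 were called instead of 23, with 16 shared.

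Pdcd4, an inhibitor that binds eIF4A, had 9.94, 8.36 and 8.49 CPM in WT with vehicle at 8 h and 39.7, 39.5 and 43.6 CPM with Dex, and 11.5, 9.81 and 9.22 against 49.4, 39.0 and 36.6 CPM in KO. It rose by 0.70, 2.11 and 1.13 at the 3 times (edgeR adjusted p = 8.85e-08, 2.05e-20 and 2.67e-13), while Eif4a1 fell at each. Deptor and Rptor, which encode partners of mTOR, rose by 1.55 and 1.47 at 8 h (edgeR adjusted p = 5.39e-17 and 3.71e-14). Mknk2, a kinase of eIF4E, rose by 0.41 and 0.95 at 2 and 8 h (edgeR adjusted p = 6.70e-06 and 2.63e-14) and was at 0.10 at 24 h (adjusted p = 0.206).

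In the list of eIF2alpha phosphatase and stress response genes, 15 of 16 were measured, with 0 higher and 3 lower at 2 h, 3 and 4 at 8 h and 6 and 4 at 24 h, again beside 52.2 and 53.6% of all genes at the later times. Atf4, the transcription factor whose translation eIF2alpha phosphorylation favours, fell by 0.42, 0.46 and 0.37 (edgeR adjusted p = 0.0205, 0.00294 and 0.0157), with 61.0, 64.0 and 56.6 against 44.1, 50.2 and 44.7 CPM in WT at 8 h and 49.4, 72.3 and 60.5 against 34.8, 45.3 and 44.9 CPM in KO. Asns, asparagine synthetase and a target of Atf4, fell by 0.87 and 1.14 at 8 and 24 h (edgeR adjusted p = 2.67e-06 and 3.36e-08). Chac1, a glutathione-degrading enzyme and another target of this response, fell by 0.93, 1.55 and 2.33 at the 3 times (edgeR adjusted p = 0.0319, 0.000722 and 4.46e-05). Its level was very low, with 1.21, 0.532 and 0.149 CPM in WT with vehicle at 24 h and 0.402, 0.261 and 0.133 CPM with Dex, which overlap. In KO it had 0.718, 0.778 and 1.03 against 0.110, 0.112 and 0 CPM. Atf4, Asns and Chac1 do not stand for the whole list. Its median log2 fold change was -0.05, -0.09 and 0.10 at 2, 8 and 24 h. At 24 h more of its genes were higher (6) than lower (4). Sesn2, a stress-induced inhibitor of mTORC1, rose by 0.98 at 8 h (edgeR adjusted p = 3.27e-11), and Ppp1r15b, a constitutive partner of the eIF2alpha phosphatase, by 0.41 (edgeR adjusted p = 6.68e-05). Ppp1r15a, the induced partner, was at -0.13 at 8 h (adjusted p = 0.31), and Ddit3, a factor of the late stress response, was 0.20 higher at 24 h (edgeR adjusted p = 0.0159).

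Downstream of initiation, 12 genes of elongation and hypusination gave 1 higher and 1 lower at 2 h, 2 and 5 at 8 h and 2 and 3 at 24 h, beside the same 52.2 and 53.6%. Eef2k, which inhibits elongation by phosphorylating eEF2, rose by 0.84, 1.24 and 0.47 (edgeR adjusted p = 3.90e-11, 6.64e-16 and 1.95e-06), with 20.9, 21 and 23.0 against 46.7, 49.3 and 51.8 CPM in WT at 8 h. Dhps, which starts the hypusine modification of eIF5A, fell by 0.35 and 0.29 at 8 and 24 h (edgeR adjusted p = 0.00129 and 0.00672), the times at which Eif5a was lower. Of 8 termination and recycling genes 7 were measured, and Denr, Gspt1 and Abce1 fell by 0.44, 0.33 and 0.39 at 8 h (edgeR adjusted p of 5.32e-07 or lower). Of 5 poly(A)-binding genes one was called: Paip2, an inhibitor of the poly(A)-binding protein, rose by 0.52 at 8 h and 0.17 at 24 h (edgeR adjusted p = 1.60e-10 and 0.00591).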

How the data were processed

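One deposited table, keyed by gene symbol, gives expected counts for 42 libraries and 11160 genes. The authors made these expected counts with fastp, HISAT2, Salmon and GRCm38, per the submitters' processing notes, with no version, role or order; no source used here gives the annotation, gene selection or use of strand. Libraries were SMART-Seq mRNA preparations, per the labels' protocols. Low genes are missing from the table (lowest total 256), and members outside it were not analysed here.

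Counts were rounded and tested in edgeR 4.0.16 (R 4.3.3) by the quasi-likelihood F test, in one model with a mean for each of the 14 groups, TMM scaling, Benjamini-Hochberg adjustment over all 11160 genes and calls at an adjusted p of 0.05. The low-count filter removed 0 genes. The SE of a log2 fold change is its size over the root of F, and intervals are 95%. CPM are TMM-scaled; ratios and sums use single libraries. The members, roles and lists were chosen with earlier results of these data known. All members may be named; per-library values are given at each time for the 4 members at either end of the called log2 fold changes, for kinases, eIF4E-binding proteins and Eif2s3x and Eif2s3y, and of each list up to 4 genes with the lowest p per time plus Atf4, Ddit3, Ddit4, Ppp1r15a, Pdcd4, Eef2k and Mknk2. Per-library values of Eif1, Eif2s1, Eif3a, Eif4e3, Eif4g1 and Eif5 were added after values were seen.

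Replicate numbers were checked as pairs by correlating deviations of same-numbered libraries within groups. All correlations exceeded 0.1 for Dex in WT at 8 and 24 h, Dex in KO at 2 and 8 h, and KO against WT in the 3 vehicle times and Dex at 2 h. Exon positions are from GENCODE mouse release 21 and promoter windows from RefSeq. Alternatives were leaving out each library, DESeq2 1.42.0, the compared libraries alone, the replicate block, a minimum mean of 5 CPM, no filter, median-ratio scaling and summed counts. The test was checked on simulated counts.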

Additional observations from a re-analysis of the deposited data

How the results depend on the processing

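No direction of a called named gene was reversed by any alternative run. For Dex at 8 and 24 h averaged over genotypes, DESeq2 called 27 and 35 members (26 and 33 by edgeR), and leaving out each library gave 24 to 28 and 28 to 36. Of the members called, 23 of 26 and 26 of 33 were called in all 12 of those fits, and at 2 h 1 of 2.

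The following counts moved by over 1.5 times, and the cause was not tested. For Dex at 2 h in WT, 0 members became 1 with DESeq2, with median-ratio scaling and with a mean of at least 5 CPM, 2 with the replicate block, and 0 to 1 when each library was left out. At 2 h averaged over genotypes, 2 became 5 with the replicate block. Vehicle at 24 h against untreated went from 11 to 18 with the replicate block. With the compared libraries alone, Dex at 24 h in WT went from 20 to 10, Dex at 2 h in KO from 2 to 1 and vehicle at 2 h against untreated from 8 to 2. Leaving out each library gave 4 to 7 for vehicle at 2 h, 6 to 14 for vehicle at 8 h, 1 to 6 for Dex at 2 h in KO and 14 to 22 for Dex at 24 h in KO. Where replicate numbers pair the libraries, the block moved no count by over 1.5 times (23 against 21 for WT at 8 h, 23 against 20 for WT at 24 h, 2 against 2 and 21 against 21 for KO at 2 and 8 h) and changed no KO against WT count.

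For Dex averaged over genotypes, some calls were lost when a library was left out or the scaling, filter or block was changed. Of these lost calls, all but those of Eif4a1, Eif2ak3, Eif2ak4 and Eif1b were of a log2 fold change under 0.2 in size. Calls lost with DESeq2, with the compared libraries alone or in other comparisons were not sized. Low genes such as Eif4ebp2 have larger errors, and reads shared by paralogs or opposite-strand genes cannot be assigned from these counts.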
